A study of Mus musculus with 16 samples.

Results

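Of the 25105 genes in the expression table, 5 are described here: Nrcam, Cldn11, Kcnab3, Klf11 and Nes, genes that moved with a JNK inhibitor in mouse islet cells transduced with a control adenovirus. They were picked by name because of that movement, so their values in the control-virus arm are a description and carry no test. The question left to the data is what the same 5 genes did with the inhibitor in a separate set of cultures that received Cre recombinase. Dispersed primary islet cells from Grp78 flox/flox mice, the genotype of every library, were transduced with adenovirus for LacZ (Ad-LacZ) or Cre (Ad-Cre) and given DMSO or the pan-JNK inhibitor JNK-IN-8 from the start of a 72-hour culture in 15 mM glucose. Each virus was combined with each treatment, which gives the groups Ad-LacZ and Ad-Cre for DMSO and, for inhibitor, Ad-LacZ + JNK inhibitor with its counterpart Ad-Cre + JNK inhibitor. Each group has 4 libraries, 1 from each of the preparations that the labels call F1, M1, M2 and F2. Grp78 is the allele that Cre is meant to delete. The labels give no age for the mice and no share of transduced cells, and the virus is not restricted to a cell type. The study's methods state that the sequenced cultures came from male and female mice. They give a wide range of adult ages for the ex vivo islet work, but no age per library. Each preparation is named by a pair of animal numbers and was split over all 4 groups.

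JNK is a stress-activated kinase that phosphorylates c-Jun and related AP-1 transcription factors, and JNK-IN-8 binds its members covalently. Islets hold insulin-producing β cells, other endocrine cells and smaller numbers of stromal, endothelial and immune cells, all of which contribute to a bulk library. Fewer cells of a type and less RNA per cell cannot be told apart in such data. Of the 5 genes, Nrcam encodes a neuronal cell adhesion molecule of the L1 family, Cldn11 a claudin of tight junctions best known from myelin and testis, Kcnab3 a cytoplasmic β subunit of voltage-gated potassium channels, Klf11 a Krüppel-like transcription factor that is induced by TGF-β and binds the insulin promoter, and Nes the intermediate filament protein nestin of progenitor and stromal cells. They are grouped here by their response and not by a pathway.

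The 5 genes lie on the plus strand of GRCm38 and are annotated as protein coding in GENCODE M21. Nrcam (ENSMUSG00000020598) spans chr12:44328885-44601964, with 17 transcripts and up to 31 exons. Klf11 (ENSMUSG00000020653) lies on the same chromosome at chr12:24651274-24662789, with up to 4 exons. Cldn11 (ENSMUSG00000037625) lies at chr3:31149920-31164324 and has 1 transcript of 3 exons, and Nes (ENSMUSG00000004891) lies at chr3:87971078-87980451 with up to 5 exons. Kcnab3 (ENSMUSG00000018470) lies at chr11:69326258-69333042 with up to 14 exons. An antisense gene, Kcnab3os, covers 147 exonic bases of Kcnab3, and whether the counting used strand is not given in the sources used here, so reads from the overlap cannot be assigned to one of the pair.

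The stretch before the start of each gene is shown because the genes moved with an inhibitor of the kinase upstream of AP-1. RefSeq (GRCm38.p6) promoter windows matched 4 of the 5 genes, and Kcnab3 is named only. Sequences run 5′ to 3′ on the plus strand and stop at the base before the annotated gene start. Capitals mark GC boxes (GGGCGG) and CCAAT boxes (CCAAT) on either strand. The windows are chr12:44328635-44328884 for Nrcam, chr3:31149670-31149919 for Cldn11, chr12:24651121-24651273 for Klf11 and chr3:87970843-87971077 for Nes.
Nrcam: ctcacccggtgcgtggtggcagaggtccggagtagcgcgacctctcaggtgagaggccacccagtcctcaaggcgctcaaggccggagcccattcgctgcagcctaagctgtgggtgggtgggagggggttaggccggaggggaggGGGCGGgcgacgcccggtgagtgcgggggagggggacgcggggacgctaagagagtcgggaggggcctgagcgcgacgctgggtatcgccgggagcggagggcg
Cldn11: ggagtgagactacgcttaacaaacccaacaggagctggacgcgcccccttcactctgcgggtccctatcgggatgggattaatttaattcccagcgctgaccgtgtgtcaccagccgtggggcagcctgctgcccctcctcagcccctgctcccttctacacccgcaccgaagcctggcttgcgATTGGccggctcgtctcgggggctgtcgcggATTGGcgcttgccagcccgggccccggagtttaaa
Klf11: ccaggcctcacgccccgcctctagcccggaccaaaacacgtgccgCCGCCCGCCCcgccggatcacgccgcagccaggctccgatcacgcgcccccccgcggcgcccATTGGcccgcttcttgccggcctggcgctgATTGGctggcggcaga
Nes: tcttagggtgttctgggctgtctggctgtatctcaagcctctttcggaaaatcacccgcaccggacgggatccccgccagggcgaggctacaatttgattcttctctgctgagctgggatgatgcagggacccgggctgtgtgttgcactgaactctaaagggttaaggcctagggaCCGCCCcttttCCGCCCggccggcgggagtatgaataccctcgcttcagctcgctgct
In the 250 bases before the RefSeq start, none of the 4 genes held an AP-1 motif (TGANTCA) or a CRE (TGACGTCA), each searched on both strands. Of 32851 windows of the same length, 6.75% held the AP-1 letters and 1.55% the CRE letters. GC boxes were found once in Nrcam, 4 times in Klf11 and 2 times in Nes, beside 32.7% of all windows with at least 1, and 2 of the Klf11 matches overlap in the run in capitals. The other 2 Klf11 matches lie beyond the printed stretch. CCAAT boxes were found 2 times each in Cldn11 and Klf11, beside 33.9% of all windows. The GC content of the windows was 72.4% for Nrcam, 63.6% for Cldn11, 76.8% for Klf11 and 58.8% for Nes, above the median of 52.4% over all windows. A match is only a match of letters, and the absence of one in this window says nothing about the factor.

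Expression was deposited as RPKM, reads per kilobase of gene and per 1 M (mega) reads, so levels are per length. Read from the steps between low values, depth was estimated at 7.72 to 25.4 M reads. The study's methods report a range of paired-end counts per sample, and the lowest of these estimates fall below it. The reason was not examined. The shallowest library was F2 of Ad-Cre + JNK inhibitor. It was also the only one whose label does not share the first and last codes common to the others. The labels do not say what these codes stand for. Of the 5 genes, Cldn11 rested on the fewest reads, an estimated 16 to 277 per library, so counting error alone reached 25.0% of its value. For Nrcam the estimate was 410 to 4774 reads. The targeted gene was higher where the labels name a knockdown: Hspa5, which encodes GRP78, was at 395 to 483 RPKM in Ad-LacZ and at 1107 to 1598 in the libraries labelled Ad-Cre. By qPCR on parallel aliquots of the sequenced samples, the study reported that Grp78 was knocked down and that Grp94 and Calr were increased. Its immunoblot of such cultures showed GRP78 protein partly reduced. Neither measurement is analysed here. Values per gene cannot show whether the floxed exons were lost, and the virus labels are used as given. The JNK target Jun was at 20.8 ± 5.95 RPKM (SD, n = 4) in Ad-LacZ and 9.68 ± 4.22 with inhibitor, and at 21.9 ± 6.72 in Ad-Cre and 9.57 ± 2.58 with inhibitor. The fall in Jun was called in both arms by the criteria defined below (limma, adjusted p = 0.192 in Ad-LacZ and 0.205 in Ad-Cre, or 0.034 and 0.00886 when the fit held a preparation block).

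In the Ad-LacZ arm, Nrcam and Cldn11 were several times higher with the inhibitor, and Kcnab3, Klf11 and Nes were lower. Each of the 5 genes held its direction in all 4 preparations, and for none did the groups overlap, as for 4.45% of all genes fitted.

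Nrcam was at 4.11, 4.62, 4.47 and 3.64 RPKM in Ad-LacZ (preparations F1, M1, M2 and F2, the order used throughout) and at 13.2, 13.7, 15.5 and 13.8 with the inhibitor. All 4 inhibitor libraries lay far above all 4 controls, and the spread within each group was small. The ratio within a preparation had a geometric mean of 3.35 and ran from 2.97 to 3.79.

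Cldn11 was at 1.08, 0.919, 1.42 and 1.33 RPKM in Ad-LacZ and at 6.26, 3.68, 5.26 and 5.84 with the inhibitor. The claudin was the lowest of the 5 genes in control cells and had the largest ratio, 4.41 (3.71 to 5.81). M1 gave the lowest value in both groups.

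Kcnab3 was at 11.2, 9.09, 18.1 and 18.3 RPKM in Ad-LacZ and at 4.83, 4.42, 5.00 and 4.71 with the inhibitor. The controls fell into a lower pair (F1 and M1) and a higher pair (M2 and F2), while the inhibitor libraries lay within a narrow band. The level was 2.86-fold lower (2.06 to 3.87 over preparations).

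Klf11 was at 6.94, 6.85, 9.38 and 7.06 RPKM in Ad-LacZ and at 3.43, 3.41, 4.98 and 4.82 with the inhibitor, 1.83-fold lower (1.46 to 2.03). M2 had the highest level of this transcription factor in both groups. Nes was at 9.19, 8.52, 12.7 and 9.13 RPKM in Ad-LacZ and at 4.66, 4.67, 4.16 and 4.19 with the inhibitor, 2.21-fold lower (1.82 to 3.05). The highest nestin control, M2, became the lowest library with the inhibitor.

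On the scale used for fitting, log2 of RPKM scaled by TMM factors (a trimmed mean of ratios between libraries) plus a pseudocount of 1, these changes were 1.55 (SE 0.10) for Nrcam, 1.52 (SE 0.16) for Cldn11, -1.33 (SE 0.18) for Kcnab3, -0.72 (SE 0.10) for Klf11 and -0.97 (SE 0.12) for Nes. The pseudocount shortens the change of low genes such as Cldn11. Over the 11657 genes fitted, the 5 genes were not the largest movers: by absolute change Nrcam stood at place 19, Cldn11 at 21, Kcnab3 at 37, Nes at 83 and Klf11 at 180. Ordered by the limma p-value, which weighs a change against its spread, they stood at places 1, 3, 17, 10 and 12. By the criteria of the study (unadjusted p under 0.05 and a fold change above 1.2) 4.73% of genes were called in this comparison, 2.88% as higher and 1.84% as lower, and at an adjusted p under 0.05, 0.197%. Nothing is read from these shares for genes that the same comparison chose. The genes outside the list with the largest changes among those called were Mgp, a matrix protein (log2 change 2.37), the collagen gene Col3a1 (2.25), the lysozyme gene Lyz2 (2.17), the 5S rRNA gene copy n-R5s123 (2.15) and Igfbp4, an IGF-binding protein (2.02). In Ad-Cre, Mgp (1.72) and Lyz2 (1.46) were called as well. Col3a1 (-1.06), n-R5s123 (0.11) and Igfbp4, whose change was negative, were not.

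**Figure D1:**
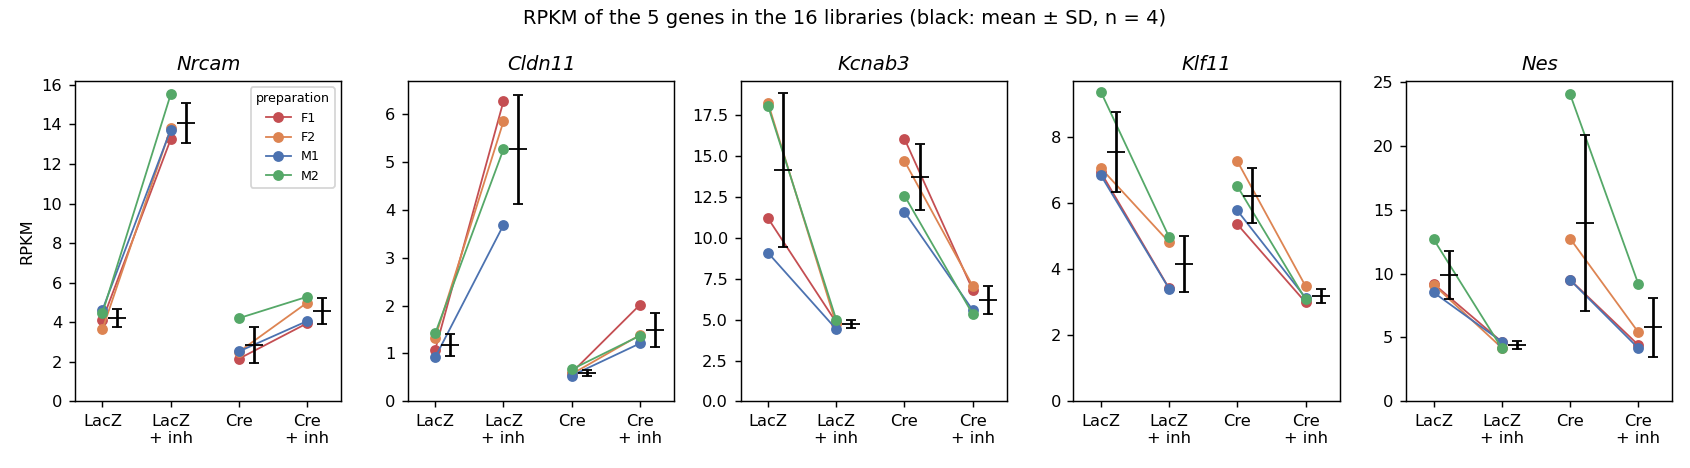
RPKM (vertical axes, each from 0) of the 5 genes in the 16 libraries, by group on the horizontal axis, where + inh is the JNK inhibitor. Each point is a library, lines join the libraries of 1 preparation within a virus arm, and black bars give the mean ± SD (n = 4). With inhibitor, Nrcam and Cldn11 reach means of 14.1 and 5.26 in Ad-LacZ and of 4.57 and 1.49 in Ad-Cre.

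In the Ad-Cre arm, each of the 5 genes moved the same way with the inhibitor as in Ad-LacZ, in each of the 4 preparations. The genes share these preparations, and the share of all genes that held 1 direction in every preparation is not given. The direction is therefore a description. The rule that chose the genes did not use the 8 libraries of this arm. However, they come from the same 4 preparations, and the choice was made with earlier results of these data known. By ratios of RPKM as deposited, Klf11 and Nes fell by factors slightly above those in Ad-LacZ (1.95 against 1.83 and 2.35 against 2.21). After TMM scaling they fell slightly less than in Ad-LacZ, as given below. Kcnab3 fell by a smaller factor (2.21 against 2.86), and Nrcam rose by a smaller one (1.65 against 3.35). By the study's criteria all of the 4 genes other than Cldn11 were called, where 5.69% of the 11503 genes fitted were called as higher and 2.36% as lower. Cldn11 was also called, but it entered the fit only through the inhibitor libraries and is treated apart below.

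Nrcam was at 2.16, 2.52, 4.21 and 2.51 RPKM in Ad-Cre and at 3.95, 4.06, 5.29 and 4.99 with the inhibitor. It was higher in each preparation, but as deposited the groups overlap, since the M2 control lay above F1 and M1 with inhibitor. After TMM scaling they do not, with controls at 2.24 to 3.52 and inhibitor libraries at 4.44 to 5.36. The ratio was 1.65 (1.26 to 1.99) and the log2 change 0.68 (SE 0.13, limma p = 0.000605, adjusted p = 0.205, exact permutation p = 0.0286).

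Kcnab3 was at 16.1, 11.6, 12.6 and 14.7 RPKM in Ad-Cre and at 6.82, 5.58, 5.33 and 7.05 with the inhibitor. The groups of this channel subunit were well apart, and the factor was nearly the same in each preparation, 2.21-fold lower (2.08 to 2.36). The log2 change was -0.88 (SE 0.16, limma p = 0.000372, adjusted p = 0.193, exact permutation p = 0.0286).

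Klf11 was at 5.36, 5.78, 6.51 and 7.27 RPKM in Ad-Cre and at 3.00, 3.14, 3.09 and 3.49 with the inhibitor. The inhibitor libraries lay within a band of less than 1 RPKM, below every control. The level was 1.95-fold lower (1.79 to 2.11), with a log2 change of -0.65 (SE 0.10, limma p = 8.17e-05, adjusted p = 0.161, exact permutation p = 0.0286), which put Klf11 at place 5 of the 11503 genes by p-value.

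Nes was at 9.52, 9.49, 24.0 and 12.7 RPKM in Ad-Cre and at 4.41, 4.16, 9.18 and 5.41 with the inhibitor. M2 stood far above the other preparations in both groups, so the group means, 13.9 ± 6.89 and 5.79 ± 2.32 (SD, n = 4), have wide errors, and yet the groups do not overlap. Within preparations nestin was 2.35-fold lower (2.16 to 2.62). The log2 change was -0.95 (SE 0.26, limma p = 0.00576, adjusted p = 0.335, exact permutation p = 0.0286), and without M2 it was -0.92 (SE 0.11, adjusted p = 0.155).

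Cldn11 was at 0.600, 0.538, 0.668 and 0.569 RPKM in Ad-Cre and at 2.02, 1.21, 1.37 and 1.38 with the inhibitor. No control library was above the filter of 1 RPKM and all 4 inhibitor libraries were, so among genes fitted it had to differ, and its call is no support. With the filter lowered to 0.1 RPKM, which its controls pass, the log2 change was 0.72 (SE 0.12, limma p = 0.000251, adjusted p = 0.237, exact permutation p = 0.0286). The ratio was 2.48 (2.05 to 3.36), on few reads.

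No gene of the 11503 passed an adjusted p of 0.05 in Ad-Cre without a block (926 genes, 8.05%, met the study's criteria), and neither did any of the 5. Libraries of the same preparation deviated together, and when the fit was blocked by preparation 764 genes, 6.64%, passed at an adjusted p under 0.05, 4.62% as higher and 2.02% as lower. The 4 genes other than Cldn11 were among them, with adjusted p = 0.0191 for Nrcam, 0.0108 for Kcnab3, 0.0157 for Klf11 and 0.00886 for Nes. Cldn11 had 0.0213 in the same fit, which is no support for the reason given above. The exact permutation p of 0.0286 is two-sided and the smallest that 4 libraries against 4 allow. After TMM scaling the groups did not overlap for any of these 4 genes, beside 5.98% of all genes fitted (3.68% as higher and 2.3% as lower), and for Cldn11 the filter fixed it. Without the shallow F2 library of Ad-Cre + JNK inhibitor, the log2 changes were 0.67 for Nrcam, -0.92 for Kcnab3, -0.66 for Klf11 and -0.92 for Nes, each still called by the study's criteria (limma), while Cldn11 was left out by the filter.

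**Figure D2:**
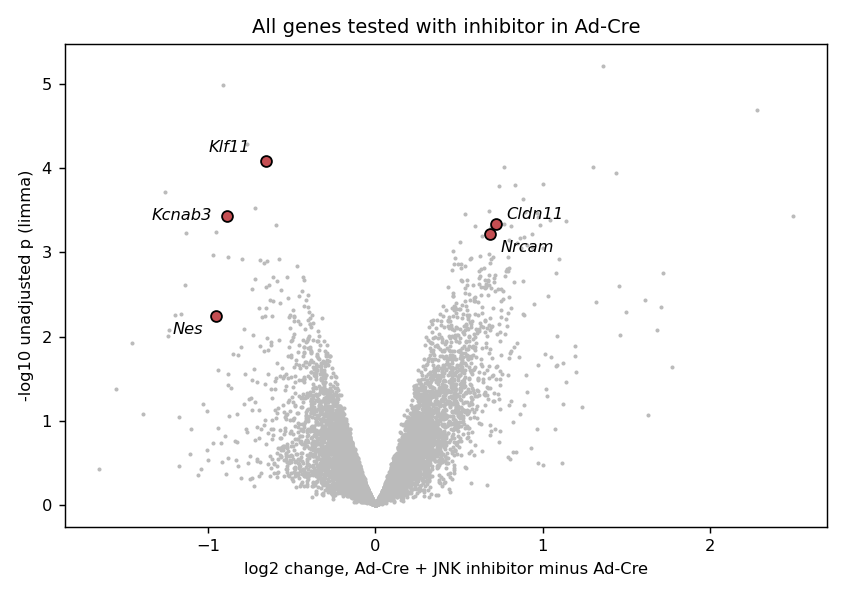
Log2 change with the inhibitor in Ad-Cre (horizontal axis, log2 of TMM-scaled RPKM + 1) against -log10 of the unadjusted limma p (vertical axis) for the 11503 genes fitted, as gray points, with the 5 genes in red. Klf11 stands highest of the 5 at a p of 8.17e-05 and Nes lowest at 0.00576.

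Set side by side, the Ad-Cre change on the log2 scale was 44.1% of the Ad-LacZ change for Nrcam and 47.2% for Cldn11, 66.6% for Kcnab3, 90.4% for Klf11 and 97.4% for Nes. These shares depend on the pseudocount of 1, most for Cldn11, whose levels in Ad-Cre were lowest. With a pseudocount of 0.1 the Cldn11 changes were 2.07 in Ad-LacZ and 1.33 in Ad-Cre, and those of Nrcam 1.74 and 0.86. As ratios of RPKM as deposited, without TMM scaling, Klf11 and Nes fell by slightly larger factors in Ad-Cre than in Ad-LacZ. TMM scaling reversed this order, also with a pseudocount of 0.1. The log2 change was then -0.78 in Ad-Cre and -0.84 in Ad-LacZ for Klf11, and -1.05 and -1.11 for Nes. The 4 Ad-LacZ values of Nrcam and of Cldn11 were all above the 4 Ad-Cre values of the same gene, while those of Kcnab3, Klf11 and Nes ran into each other. The difference between the arms was not tested, because it contains the comparison that chose the genes, and a gene chosen for a large change in one arm can have a smaller one in the other for that reason alone.

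**Figure D3:**
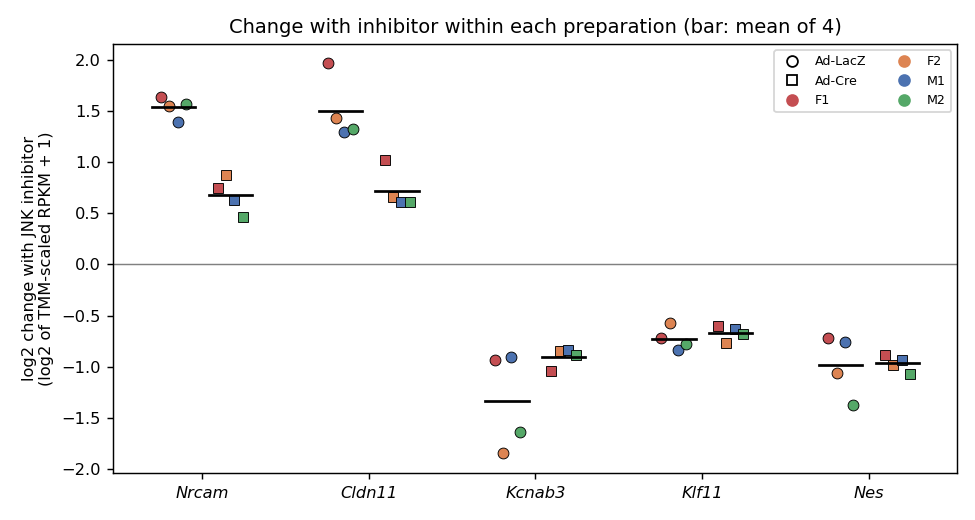
Log2 change with the inhibitor (vertical axis, log2 of TMM-scaled RPKM + 1) within each preparation for the 5 genes, with circles for Ad-LacZ, squares for Ad-Cre and a bar at the mean of 4. The 20 squares lie on the same side of 0 as the circles of their gene. For Nrcam and Cldn11 the squares sit below the circles.

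The level without inhibitor also differed between the virus groups for some of the genes. These comparisons share libraries with the one that chose the genes and are given as values only. Nrcam had a mean of 4.21 ± 0.437 RPKM in Ad-LacZ and 2.85 ± 0.921 in Ad-Cre (SD, n = 4), 1.52-fold lower in Ad-Cre (1.06 to 1.90), with the M2 library of Ad-Cre inside the Ad-LacZ range. Cldn11 had a mean of 1.19 ± 0.229 in Ad-LacZ and 0.594 ± 0.0553 in Ad-Cre, 1.97-fold lower (1.71 to 2.33) with no overlap. With the inhibitor the gap between the virus groups was wider: Nrcam was 3.10-fold lower in Ad-Cre (2.76 to 3.38) and Cldn11 3.52-fold lower (3.04 to 4.22). In log2 terms the Nrcam difference, Ad-Cre minus Ad-LacZ, was -0.48 without and -1.28 with the inhibitor. For Kcnab3 it was -0.01 without and 0.47 with the inhibitor, for Klf11 -0.25 and -0.15, and for Nes 0.36 and 0.42.

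The order of the 4 groups therefore differed between genes. Means and overlaps here are on RPKM as deposited unless TMM scaling is named. Nrcam was highest in Ad-LacZ + JNK inhibitor at 14.1 ± 0.993 RPKM, followed by Ad-Cre + JNK inhibitor (4.57 ± 0.668), Ad-LacZ and Ad-Cre, each of which overlapped its neighbor among the last 3. Cldn11 had the same order, with 5.26 ± 1.13, 1.49 ± 0.356, 1.19 and 0.594 RPKM. Ad-Cre + JNK inhibitor and Ad-LacZ overlapped for this gene, so that with the inhibitor Ad-Cre libraries held both genes at levels overlapping those of Ad-LacZ without it. After TMM scaling this overlap of Cldn11 was gone, with 1.38 as the lowest value in Ad-Cre + JNK inhibitor and 1.27 as the highest in Ad-LacZ. Kcnab3 was at 14.2 ± 4.71 in Ad-LacZ and 13.7 ± 2.02 in Ad-Cre, which overlapped, then 6.19 ± 0.865 in Ad-Cre + JNK inhibitor and 4.74 ± 0.246 in Ad-LacZ + JNK inhibitor, which did not. After TMM scaling the inhibitor groups of Kcnab3 overlapped as well. F1 of Ad-LacZ + JNK inhibitor (5.57) then lay above M2 of Ad-Cre + JNK inhibitor (5.48). Klf11 was at 7.56 ± 1.22 in Ad-LacZ and 6.23 ± 0.842 in Ad-Cre, then 4.16 ± 0.858 in Ad-LacZ + JNK inhibitor and 3.18 ± 0.215 in Ad-Cre + JNK inhibitor, with overlap within each pair of neighbors that share the treatment. In the TMM-scaled fit of Ad-LacZ and Ad-Cre alone, these groups did not overlap for Klf11. Nes was at 13.9 in Ad-Cre and 9.88 ± 1.89 in Ad-LacZ, then 5.79 in Ad-Cre + JNK inhibitor and 4.42 ± 0.284 in Ad-LacZ + JNK inhibitor, and each group overlapped its neighbor. Between Ad-LacZ and Ad-Cre + JNK inhibitor the overlap rested on 1 library, M2 of the latter (9.18).

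Over the 16 libraries, the log2 levels of Nrcam and Cldn11 had a Pearson correlation of 0.948, and each was the gene most like the other among 12273 genes compared. Kcnab3 and Klf11 had a correlation of 0.806, Kcnab3 and Nes 0.744, and Kcnab3 and Nrcam -0.861. These libraries share 4 preparations and 4 treatments, so the values are descriptions of a common pattern and not of 16 independent points. The next genes most like Nrcam were Sntg2, a syntrophin (0.907), and Cd47, a surface receptor that restrains phagocytosis (0.892). For Cldn11 they were Sntg2 (0.925) and Kcnk9, a leak potassium channel (0.878), whose mean ran from 1.14 RPKM in Ad-LacZ to 7.18 with inhibitor and from 0.549 to 1.71 in Ad-Cre. Sntg2 was low, at 0.578 and 1.47 in Ad-LacZ without and with inhibitor. The genes most like Klf11 were Dusp16, a phosphatase of stress-activated kinases (0.962), Rps6kl1 (0.945) and Pik3ip1, an inhibitor of PI3 kinase (0.896). Dusp16 averaged 5.37 RPKM in Ad-LacZ, 2.30 with inhibitor, 4.53 in Ad-Cre and 1.70 with inhibitor. Those most like Kcnab3 were 2310022B05Rik (0.893), the related phosphatase Dusp8 (0.887) and the thioredoxin-interacting protein gene Txnip (0.881), whose mean was 207.6 RPKM in Ad-LacZ, 102 with inhibitor, 223 in Ad-Cre and 108 with inhibitor. Those most like Nes were Podxl, a sialomucin (0.855), Ppp1r14a, an inhibitor of myosin phosphatase (0.836), and Jun itself (0.834).

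Relatives of the 5 genes were examined in short lists. Over all genes fitted, 4.73% were called in Ad-LacZ (2.88% as higher and 1.84% as lower). In Ad-Cre 8.05% were called (5.69% as higher and 2.36% as lower). In lists this short, few or no calls lie near these shares, so nothing is read from the counts. Lists of family members and partners, which hold none of the 5 genes, are given by counts called by the study's criteria and by the median log2 change, beside medians of -0.0045 in Ad-LacZ and -0.0054 in Ad-Cre over all genes fitted. Among 9 fitted genes of the L1 adhesion family and its partners, none was called as higher and 1 as lower in each arm (medians 0.06 in Ad-LacZ and -0.11 in Ad-Cre). The gene called was L1cam, the founding member of the family, which moved against Nrcam: its log2 change was -0.55 in Ad-LacZ and -0.72 in Ad-Cre (limma, adjusted p = 0.193, or 0.0235 when blocked by preparation). Cntn1, a contactin that binds NRCAM, had -0.42 in Ad-Cre and passed only with the block (limma, adjusted p = 0.0346), and the scaffold gene Dlg3 had -0.11.

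Among 15 claudin and tight junction genes none was called in Ad-LacZ, and 1 was lower in Ad-Cre, Cldn4, an epithelial claudin (-0.60, limma, adjusted p = 0.536). The junction genes Ocln and Cldn23 had -0.17 and -0.26. Among 4 fitted subunits of voltage-gated potassium channels none was called in Ad-LacZ. In Ad-Cre Kcna2, a channel-forming subunit, fell (-0.52, limma, adjusted p = 0.449, or 0.0245 when blocked by preparation). Among 15 other KLF and SP transcription factors none was called in Ad-LacZ, and 2 fell in Ad-Cre: Klf10, another factor induced by TGF-β (-0.48), and Klf13 (-0.37). Klf9 had -0.28 and was not called. The median of this list was -0.02 in Ad-LacZ and -0.13 in Ad-Cre, where 3 of the 15 were higher and the rest lower, as Klf11 was.

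Among 11 intermediate filament genes none was called in Ad-LacZ and 2 rose in Ad-Cre, Ina (0.64), which encodes a neuronal filament, and Krt18 (0.59), a keratin of simple epithelia. Both moved against Nes. Des, the desmin gene of muscle and stromal cells, had -1.17 with a wide error and passed only with the block (limma, adjusted p = 0.0295). Among 14 AP-1 and immediate-early genes, 2 were called as higher and 2 as lower in Ad-LacZ, and in Ad-Cre Jun (-0.95) and Jund (-0.85) fell and Fos rose (0.31). Among TGF-β and BMP response genes, none of 13 was called in Ad-LacZ, and 1 of 14 fell in Ad-Cre, Tgfbi, a matrix protein (-0.59), while Bambi and Smad6, inhibitors of the pathway, had 0.47 and -0.59 and were not called.

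Markers of islet cell types were examined beside the 5 genes. Of the 10 β cell markers none was called in either arm (medians -0.02 and -0.06), and their summed level was 52128 to 85014 RPKM in Ad-LacZ, so the labelled tissue had its defining markers. With the inhibitor this sum was 36196 to 61605 RPKM, higher in 0 of 4 preparations, and it was 33563 to 84543 in Ad-Cre and 33368 to 64583 with inhibitor there, higher in 1 of 4. The sum was mostly Ins1 and Ins2. By log2 change, 5 of the 10 β cell markers were higher with the inhibitor in each arm. Of the macrophage markers, 8 of 8 fitted were higher with the inhibitor in Ad-LacZ (7 called, median 0.85), as Nrcam and Cldn11 were, and 5 of 8 in Ad-Cre (1 called, median 0.23). Their sum was higher with the inhibitor in 4 of 4 preparations of each arm. In Ad-Cre its largest part was Lyz2, the gene called there, whose mean was 66.4 RPKM without and 147 with inhibitor. The means of C1qa (36.3 and 49.3), Ctss (22.7 and 28.0) and Cd68 (16.4 and 18.4) were also higher with inhibitor. Those of C1qb (2.95 and 1.92), C1qc (7.41 and 6.53), Csf1r (3.62 and 1.93), Adgre1 and Ptprc were lower. The sum ran from 81.3 to 91.7 RPKM in Ad-LacZ and 158 to 344 with inhibitor, and from 84.8 to 237 in Ad-Cre and 195 to 332 with inhibitor. With the inhibitor the macrophage sums of both arms overlapped, while the Nrcam levels of the arms were 3.10-fold apart. The summed duct markers, mostly Spp1, were also higher in 4 of 4 preparations of each arm, at 157 to 286 RPKM in Ad-LacZ and 405 to 877 with inhibitor, and at 129 to 364 in Ad-Cre and 234 to 379 with inhibitor. Schwann cell and glia markers, from cells known for Nrcam, were near the filter (1 of 9 fitted in Ad-LacZ and 2 in Ad-Cre, none called) and summed to 3.26 to 5.76 RPKM in Ad-LacZ and 3.65 to 5.54 with inhibitor, and to 5.02 to 7.54 in Ad-Cre and 3.93 to 6.48 with inhibitor. The part of these cells in the changes of Nrcam and Cldn11 was not tested.

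Stellate cell and fibroblast markers, from cells that can express nestin, did not follow Nes across the arms. In Ad-LacZ 11 of 11 fitted markers were higher with the inhibitor (3 called, median 0.97), and their sum was higher in 3 of 4 preparations, while Nes was lower in all 4. In Ad-Cre 1 of 12 was higher (none called, median -0.69, and 2 lower with the block), and the sum was lower in all 4 preparations, as Nes was. The M2 library of Ad-Cre had both the highest sum, 3131 RPKM, and the highest Nes level, 24.0. Endothelial markers, from another cell type that can express nestin, summed to 36.8 to 64.6 RPKM in Ad-LacZ and 30.6 to 63.9 with inhibitor, and to 36.2 to 123 in Ad-Cre and 36.0 to 96.9 with inhibitor. Of 9 fitted, 1 was called as higher and 1 as lower in Ad-LacZ. None was called in Ad-Cre without the block, and with it Plvap, a gene of fenestrated endothelium, passed as higher (0.80, limma, adjusted p = 0.03). In Ad-Cre the markers of other endocrine cells rose in part: 2 of 4 δ cell markers were called as higher (median 0.71), among them Sst (1.08), and 1 of 6 α cell markers, Ttr (1.68), or 2 of 6 with the block, with a median of 0.52. No marker gene was at 0 in all 16 libraries, and the part of cell makeup in the falls of Nes, Kcnab3 and Klf11 was not tested.

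**Figure D4:**
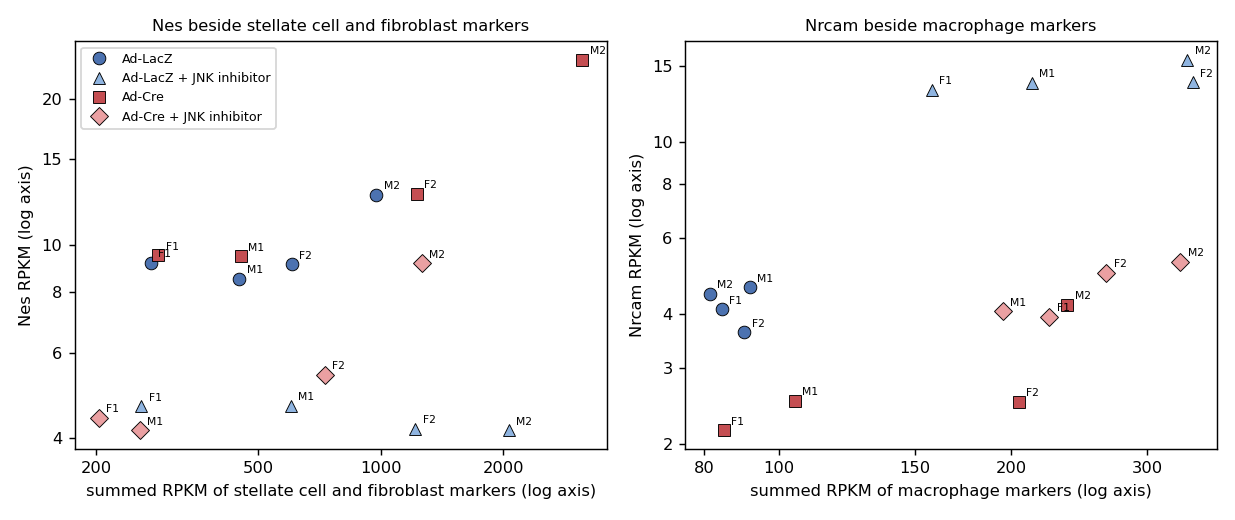
Nes against the summed stellate cell and fibroblast markers (left) and Nrcam against the summed macrophage markers (right), in RPKM on log axes, 1 point per library labelled by preparation and marked by group. On the left the 4 Ad-LacZ + JNK inhibitor libraries lie at 4.16 to 4.67 RPKM of Nes over the whole range of marker sums, 258 to 2063. On the right Ad-LacZ + JNK inhibitor stands above all other libraries at like marker sums.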

How the data were processed

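RNA from 16 cultures was sequenced as poly(A) libraries with paired-end 150-bp reads (Illumina, per the labels). The authors deposited 1 table of RPKM. The study's methods cite STAR for the alignment and the labels name GRCm38, but the annotation, gene lengths and the step from counts to RPKM are not given in the sources used here. Libraries were grouped by their treatment labels, and 3 columns that no label names were not used. RPKM were scaled by TMM factors (trims of 30% of ratios and 5% of levels), and log2(value + 1) was fitted with limma 3.58.1 under R 4.3.3 (linear model, moderated variances with a mean trend), on the 8 libraries of each comparison, for genes above 1 RPKM in at least 4. P-values were adjusted by the Benjamini-Hochberg method over all genes fitted, and calls needed a fold change above 1.2. The study's methods do not say whether its P is adjusted, and it was taken as unadjusted. Tables used Python 3.11.15. The fit was tested on simulated data.

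Genes were named by rule: the 5 genes, Hspa5 and Jun, the 3 most correlated genes of each, the 5 largest other movers, and up to 3 per list, except for some items that are not reported here. The 5 genes and the lists were chosen with earlier results of these data known. Same-numbered libraries come from the same animals per the titles. Their residual correlation was 0.645 to 0.821 in Ad-Cre and 0.131 to 0.825 in Ad-LacZ, against means of -0.23 and -0.163 for other pairs, so the preparation was tried as a block. Replicates are 4 preparations. Depth came from the steps of low RPKM times exon length, where over 97% of values tested in a library were whole reads within 0.05, and read numbers and intervals from it cover counting error only. Alternatives changed the pseudocount, filter, scaling, block, samples fitted and each preparation in turn.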

Additional observations from a re-analysis of the deposited data

Results flagged for a closer look

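Of the 20 groups of 4 libraries examined for the 5 genes, 2 held a library far from the others by Dixon's limit, where chance marks about 1 group in 20. Both were the M2 library of Ad-LacZ: Klf11 at 9.38 RPKM, beside 6.85 to 7.06 in the other 3, and Nes at 12.7 RPKM, beside 8.52 to 9.19. After leaving M2 out, Nes had a log2 change with inhibitor of -0.84 in Ad-LacZ.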

How the results depend on the processing

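Over 124 values of the 5 genes under the alternatives, no direction was reversed. In Ad-Cre each gene stayed past the study's criteria wherever it was fitted; the highest p was 0.029, for Nes without F2. The exception was Cldn11, which the filter left out without the F2 library of Ad-Cre + JNK inhibitor. A pseudocount of 0.1 moved the Ad-LacZ log2 changes of Nrcam to 1.74, Cldn11 to 2.07 and Klf11 to -0.84. The change in Ad-Cre ran from 0.55 to 0.86 for Nrcam, 0.62 to 1.33 for Cldn11, -1.03 to -0.85 for Kcnab3, -0.79 to -0.61 for Klf11 and -1.09 to -0.92 for Nes. Adjusted p-values (limma) depended on the design: they ran from 0.00308 to 0.999, and passed for 3 of the 4 genes other than Cldn11 when all 16 libraries were fitted together and for 4 of these 4 with the replicate block. Counting Cldn11, which the filter admitted through its high group, they passed for 4 and 5 genes. The fit of all 16 libraries takes its spread partly from the Ad-LacZ libraries that chose the genes. Its passes, which include the lowest adjusted p, are therefore no support. The block changed no direction.

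The 926 genes called in Ad-Cre became 1463 on RPKM as deposited and 2177 with the replicate block. They ranged from 418 (without M1) to 1334 (without M2) when a preparation was left out, with 488 without F2. The 0 genes at an adjusted p under 0.05 became 3 with a pseudocount of 0.1, 53 with all 16 libraries and 764 with the replicate block, and 0 to 1 with a preparation left out. In Ad-LacZ, 551 genes became 962 with the replicate block, and the 23 at an adjusted p under 0.05 became 4 with no filter, 7 on RPKM as deposited, 11 with all 16 libraries, 48 with the replicate block, and 0 to 3 with a preparation left out (0 without M2). The causes were not tested. Depth limits Cldn11 most, since its lowest library held an estimated 16 reads.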
